A study of Rattus norvegicus with 6 samples.

Results

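The 10 genes described here form the NLRP3 inflammasome and the part of the interleukin-1 family around it: Nlrp3, Pycard, Casp1, Il1b, Il18, Il33, Il1rn, Il1r1, Il1rl1 and Txnip. They were picked from the files by gene name and are 10 of the 26442 gene names on the array that had a value on every array. Expression was measured with 1-colour arrays in left ventricle of 6 male rats, 1 array per sample. The titles of all samples, in both strains, carry the label ExVivoLV. LETO, the non-diabetic control strain, gave 3 samples, of which LETO 1 was 27 weeks old and LETO 2 and LETO 3 were 28 weeks old. OLETF, a strain that becomes obese and develops type 2 diabetes, gave 3 samples, of which OLETF 1 and OLETF 3 were 27 weeks old and OLETF 2 was 28 weeks old. The labels name no drug or diet. Strain and diabetes cannot be told apart in this design, and p-values measure the spread between these samples.

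An inflammasome is a protein complex that senses damage or infection inside a cell. In the NLRP3 inflammasome the sensor NLRP3 recruits the adaptor ASC, the product of Pycard, which brings in caspase-1, and caspase-1 cuts the precursors of IL-1 beta and IL-18 into their active forms. IL-1 beta acts through the receptor IL1R1, which the antagonist encoded by Il1rn occupies without signalling, and IL-33, a nuclear protein released from damaged cells, acts through ST2, the product of Il1rl1. TXNIP inhibits thioredoxin, is strongly induced by glucose, and has been described as a partner of NLRP3. In heart this pathway is best known from infarction and from models of diabetic heart disease. Arrays measure mRNA, so neither cleavage of the precursors nor release of the cytokines was measured.

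Of the 10 members, 8 were measurable and 2, the sensor Nlrp3 and the receptor gene Il1rl1, were not well above background on any of the 6 arrays. Casp1 was 1.56-fold higher in OLETF and was the 1 member called (limma, Benjamini-Hochberg adjusted p = 0.0212), where 2.55% of all genes were called. Its call ended with slide as a block (adjusted p = 0.335), and only 2 of the fits that left out 1 array kept it. Il33 was at 0.777-fold in OLETF with no overlap between the strains, as for 17.4% of all genes, but it did not pass (adjusted p = 0.190). Il1b varied most, by 35.5-fold between the highest and the lowest array, with 20.4-fold within OLETF alone, and did not pass. Pycard, Il18, Il1r1, Il1rn and Txnip did not pass.

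The array reads each member with probes of 60 bases, 11 in all, of which the following 6 are shown to identify what was read, either for the members whose calls or detection the results turn on or for their closest partners. They are given 5′ to 3′ as the scanner files give them. The first is that of the called member, the next 2 are those of probes that were never above background, and the last 3 belong to the adaptor, the second cytokine and the receptor.
Casp1: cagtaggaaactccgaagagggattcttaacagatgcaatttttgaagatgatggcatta
Nlrp3: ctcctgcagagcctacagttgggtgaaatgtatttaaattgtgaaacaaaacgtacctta
Il1rl1: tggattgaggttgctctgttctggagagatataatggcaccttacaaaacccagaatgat
Pycard: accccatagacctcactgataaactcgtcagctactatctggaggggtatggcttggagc
Il18: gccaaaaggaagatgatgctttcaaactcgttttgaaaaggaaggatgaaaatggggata
Il1r1: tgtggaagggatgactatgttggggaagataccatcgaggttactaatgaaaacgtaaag

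On the rn4 build, which the files use, these probes lie on the plus strand at chr8:2032917-2032976 (Casp1), chr10:45873953-45874157 (Nlrp3), chr9:39619275-39620742 (Il1rl1), chr8:53943005-53943064 (Il18) and chr9:39472634-39473165 (Il1r1), and on the minus strand at chr1:187276921-187276980 (Pycard). The Nlrp3, Il1rl1 and Il1r1 probes span 205, 1468 and 532 genomic bases, more than their own length, so each crosses a splice junction. The second Il1rl1 probe lies 2.05 kb away at chr9:39617225-39617284, and per the file's descriptions the pair reads transcript variants 1 and 2 of the gene. The probes of the remaining members lie at chr3:116964465-116964524 (Il1b, minus strand), chr3:2613130-2613189 (Il1rn), chr1:233685259-233685318 (Il33) and chr2:191360631-191360690 (Txnip). Each measurable member was read by a single probe, so no member's difference could be set against a second probe.

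Levels below are log2 of the spot signal over the 75th percentile of the array's probes, so 0 marks a probe as bright as that percentile, which lay between 887 and 1228 intensity units. Levels of different probes are not set against each other, since probes differ in how strongly they bind. Between 75.5% and 79.8% of spots were well above background by the scanner's own flag, and no spot was saturated. Slide 1 carried every LETO array and OLETF 1, and slide 2 carried OLETF 2 and OLETF 3. Within a slide the strains could therefore be compared only through OLETF 1, and this is what the value with slide as a block gives. Without OLETF 1 each strain lay on its own slide, so values without that array cannot tell strain from slide. This holds for every gene below. LETO 1 stood apart, with an array quality weight of 0.205, the lowest of the 6, and values without it are given for the results that it moved most. All 7 cardiomyocyte markers were well above background on every array. The numbering of the LETO files and 1 source name differ from the titles, which name the arrays here. All 3 of them are LETO by every label.

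Nlrp3, the sensor, was read by 10 repeated spots on each array. Of 60 spots 58 were usable, and 0 were well above background. The mean intensity per array lay between 5.02 and 8.40 units, whereas the dimmest probe well above background on the same arrays lay between 13.9 and 19.6 units. Both strains were below that limit, so no fold was computed. The probes of Il1rl1 were also below it, with 0 of 6 arrays well above background for either probe and intensities of 3.66 to 8.36 and of 3.99 to 12.0 units. At this sensitivity neither transcript was detectable in the ventricle of either strain, which does not show that they are absent.

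**Figure D1:**
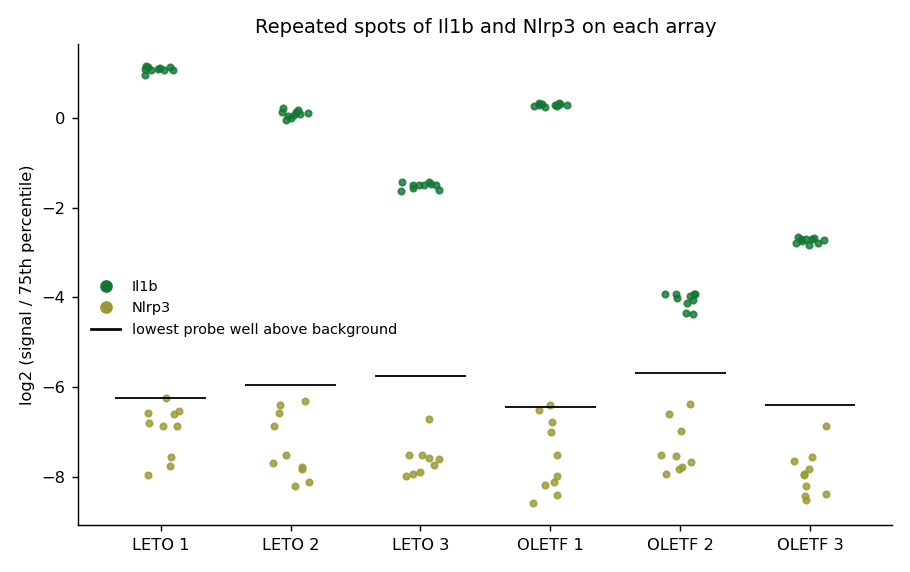
Each point is 1 of the repeated spots of Il1b (green) or Nlrp3 (olive) on the array named on the horizontal axis, up to 10 per array, and the vertical axis is the level in log2 units, relative to the array's 75th percentile. Black lines mark the dimmest probe well above background on that array, between −6.45 and −5.68. The Nlrp3 spots lie around or below these lines, and the Il1b spots of 1 array lie close together compared with the distance between arrays.

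Casp1, which encodes the protease of the inflammasome, read −2.05, −2.01 and −2.17 on LETO arrays 1 to 3 and −1.56, −1.30 and −1.44 on OLETF arrays 1 to 3. Every OLETF array lay above every LETO array, and the gap between the nearest arrays of the strains was 0.45. The means were −2.08 ± 0.08 in LETO and −1.43 ± 0.13 in OLETF (SD, n = 3 each). The difference was 0.64 ± 0.10 on the log2 scale (SE, 95% confidence interval 0.41 to 0.88), or 1.56-fold with an interval of 1.32 to 1.84 (limma adjusted p = 0.0212).

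Casp1 has 1 spot per array. Probes of the same level with at least 5 repeated spots, between −3 and −1 on the log2 scale, had a median SD of 0.0653 across the spots of an array, so the strain difference was larger than the scatter of spots. The limit lies in the number of arrays. With slide as a block the difference was 0.52 and no longer passed (adjusted p = 0.335), nor did it pass without a filter on dim probes (adjusted p = 0.0797). Leaving out 1 array in turn gave 0.58 to 0.71, and the call was kept without LETO 1 or OLETF 1, where the fit without OLETF 1 cannot tell strain from slide. It ended on leaving out LETO 2, LETO 3, OLETF 2 and OLETF 3 in turn (adjusted p = 0.0648, 0.0859, 0.0965 and 0.110).

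Over all 18816 genes tested, 480 were called, or 2.55%, of which 283, or 1.5%, were higher and 197, or 1.05%, were lower in OLETF. At least 2336 of these 18816 genes had an unadjusted p below 0.05 from limma, the background for the counts at that threshold below. The strains did not overlap for 2 of the 8 measurable members, against 17.4% of all genes, so a gap between the strains is in itself common here. The background share was 8.92% for genes without overlap that were higher in OLETF, as Casp1 was, and 8.43% for those that were lower, as Il33 was. The median difference was −0.13 over the 8 members and −0.01 over all genes, with 2 members higher and 6 lower. No statement about the members as a group follows from 1 call among 8.

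Macrophages are a known source of Casp1, Il1b and Il18 in heart. All 12 macrophage and monocyte markers on the array were well above background on every array, 0 of 12 were called by limma and 2 had an unadjusted p below 0.05, and their summed level was 31.2, 26.4 and 21.2 times the 75th percentile on LETO arrays 1 to 3 and 28.3, 31.2 and 29.6 on OLETF arrays 1 to 3. The strains overlapped. Such a sum follows the brightest probes of its list, so the sums of different lists, here and below, are not set against each other. The part of these cells in the Casp1 difference was not tested, and in bulk tissue more cells of a type and more RNA per cell cannot be told apart.

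**Figure D2:**
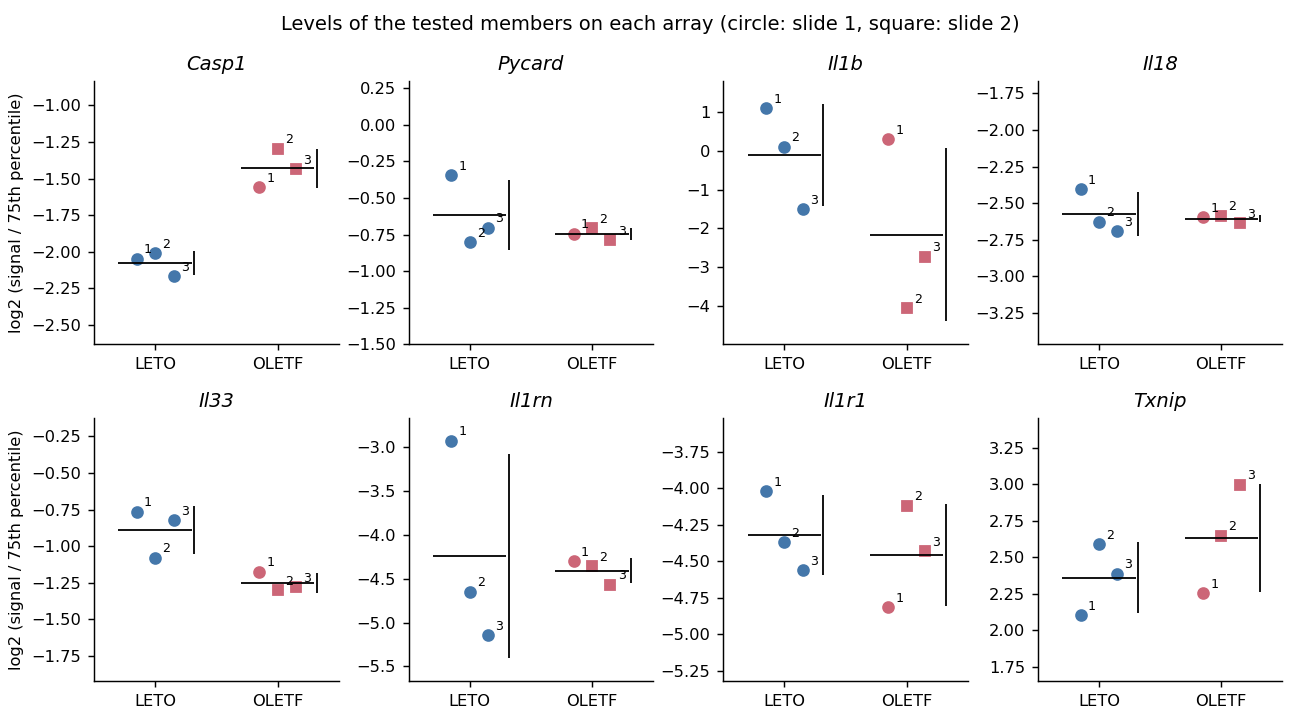
Levels of the 8 measurable members, with the level in log2 units, relative to the 75th percentile, on the vertical axis and the strains on the horizontal axis. Points are single arrays with their replicate numbers, circles on the first slide and squares on the second, horizontal lines are means of 3 arrays, and vertical lines beside them are ± 1 SD. Scales differ between panels. The strains separate for Casp1 and Il33 and overlap for the other 6, and the Il1b panel covers the widest range.

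The Casp1 promoter is shown because Casp1 is the called member. The 250 bases before the RefSeq start, on the plus strand of GRCr8 at chr8:10872580-10872829, were searched on both strands for GAAA repeated after any 2 bases, a core of the element bound by interferon regulatory factors. The match is in capitals, on the minus strand.
Casp1 promoter: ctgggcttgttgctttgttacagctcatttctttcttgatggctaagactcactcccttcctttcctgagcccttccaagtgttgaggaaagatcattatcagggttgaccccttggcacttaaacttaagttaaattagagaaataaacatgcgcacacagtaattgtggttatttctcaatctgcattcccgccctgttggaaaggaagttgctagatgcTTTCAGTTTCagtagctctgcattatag
The match begins 28 bases before the start. The same motif occurred in 1312 of 33469 RefSeq promoters, or 3.92%, in windows of 300 bases that reach 50 bases past the start. Of the 9 members with a promoter in that table, 1 held a match. A match describes these letters only, and no binding was measured.

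Casp4 and Casp12 lie beside Casp1 and are related to it. Casp4, the caspase that senses bacterial lipopolysaccharide, has its probe 42.1 kb from that of Casp1 on rn4, and its difference was −0.06 ± 0.12 (SE, adjusted p = 0.949). Casp12, grouped with the inflammatory caspases, lies 77.0 kb away. Its levels read −2.04, −2.31 and −2.48 on LETO arrays 1 to 3 and −1.80, −1.62 and −1.58 on OLETF arrays 1 to 3. All OLETF arrays of Casp12 were above all LETO arrays, and the difference of 0.61 ± 0.13 did not pass (SE, adjusted p = 0.0718). With slide as a block it was 0.48 (adjusted p = 0.628). It passed without LETO 1, at 0.73 (adjusted p = 0.0261), and with normexp background correction, with trend and robust in eBayes, or with array weights. Whether Casp1 differed from its neighbours was not tested.

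Of 15 measurable caspases, gasdermins, membrane channels and related genes, which include the cathepsin genes Ctsb and Ctsl1, the alarmin gene Hmgb1 and the cytokine gene Il16, 0 were called in either direction by limma, 3 had an unadjusted p below 0.05, and their median difference was 0.01. Gsdmd, the pore-forming protein that caspase-1 cuts, had 0.25 ± 0.09 (SE, adjusted p = 0.322), without overlap between the strains. The pannexin channel gene Panx2 had −0.67 ± 0.18 (SE, adjusted p = 0.142). Slide as a block gave −0.34 for Panx2 (adjusted p = 0.903), and it passed with array weights, at −0.85 (adjusted p = 0.0292). P2rx7, the ATP-gated channel best known for triggering NLRP3, was well above background on 0 arrays.

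Pycard, the adaptor, read −0.34, −0.80 and −0.70 on LETO arrays 1 to 3 and −0.74, −0.71 and −0.79 on OLETF arrays 1 to 3. LETO 1 was the highest array, and the other 5 lay between −0.80 and −0.70. The difference was −0.13 ± 0.13 (SE, adjusted p = 0.846), with a 95% confidence interval of −0.44 to 0.18. Without LETO 1 it was 0.0061.

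Among 13 measurable sensors and adaptors of other inflammasomes and related complexes, 0 were called by limma, 1 had an unadjusted p below 0.05, and the median difference was 0.00. That 1 was Card9, an adaptor of fungal sensing in myeloid cells, reading 2.94, 2.68 and 2.08 on LETO arrays 1 to 3 and 1.55, 1.83 and 1.71 on OLETF arrays 1 to 3. Its OLETF arrays all lay below its LETO arrays, and the difference was −0.87 ± 0.22 (SE, adjusted p = 0.110). Without LETO 3 it passed, at −1.11 (adjusted p = 0.0184). It did not pass with slide as a block, at −1.01 (adjusted p = 0.442), or with array weights, at −0.57 (adjusted p = 0.0999802). The sensor gene Nlrp1b had 0.36 ± 0.21 (adjusted p = 0.594). Its probe was dim, reading −5.63 on LETO 3, where the dimmest probe well above background lay at −5.76. Nek7, the kinase that NLRP3 needs for assembly, had −0.01 ± 0.08 (SE, adjusted p = 0.993). Nlrp6, Nlrp10 and Nlrp12 were well above background on 0 arrays.

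Il1b, the best known substrate of caspase-1, read 1.09, 0.10 and −1.51 on LETO arrays 1 to 3 and 0.29, −4.06 and −2.73 on OLETF arrays 1 to 3. From highest to lowest the order was LETO 1, OLETF 1, LETO 2, LETO 3, OLETF 3 and OLETF 2. OLETF 1 lay among the LETO arrays, above 2 of them, and the strains overlapped. The highest array was 35.5-fold above the lowest, with 6.07-fold between the extremes of LETO and 20.4-fold between those of OLETF.

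The means of Il1b were −0.11 ± 1.31 in LETO and −2.17 ± 2.23 in OLETF (SD, n = 3 each). The difference was −2.06 ± 1.13 on the log2 scale (SE), with a 95% confidence interval from −4.73 to 0.61 (limma adjusted p = 0.570). Its SD within the strains, 1.83, ranked 12 of 18816 genes, against a median of 0.15 over all of them. Among the members Il1b had the estimate of largest size and the widest interval. Leaving out 1 array in turn gave −3.29 without OLETF 1, −1.46 without LETO 1 and −1.11 without OLETF 2, and the other 3 values lay between −2.76 and −1.78.

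The repeated spots of Il1b lay close together. The probe has 10 spots on each array, all well above background, and their SD within an array lay between 0.0332 and 0.172 on the log2 scale. Their mean intensity ran from 53.2 to 2251 units. By slide, the 4 arrays of the first slide ranged from −1.51 to 1.09, and both arrays of the second, OLETF 2 and OLETF 3, lay lower. With slide as a block the difference was 0.40, of the opposite sign (adjusted p = 1.00). By age, the samples of 27 weeks had 1.09, 0.29 and −2.73 and those of 28 weeks had 0.10, −1.51 and −4.06, so the ages overlapped. With age as a covariate the difference was −2.83 (adjusted p = 0.228).

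Neutrophils are another source of Il1b. Of 9 neutrophil markers on the array 2 were well above background on all 6 arrays, and 5 on none, among them S100a8, S100a9 and Elane. The summed level of the neutrophil markers was 0.213 to 0.226 times the 75th percentile in LETO and 0.188 to 0.281 in OLETF. The macrophage markers given above were lowest in LETO 3 and highest in LETO 1 and OLETF 2, the array with the lowest Il1b. The part of either cell type in the Il1b values was not tested.

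Il1a, the second agonist for the same receptor, lies 50.7 kb from Il1b on rn4 chromosome 3. Its levels read −1.45, −4.18 and −2.74 on LETO arrays 1 to 3 and −2.87, −6.20 and −5.05 on OLETF arrays 1 to 3, and it was well above background on 5 arrays. Its highest and lowest arrays were the same as those of Il1b, LETO 1 and OLETF 2. OLETF 2 was the array not well above background, so no fold is given for it. The fitted difference, which includes that value, was −1.92 ± 0.95 (SE, adjusted p = 0.502).

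Genes that interleukin-1 and NF-kappaB induce formed the list, among the 6 pathway lists, with the largest deviations of single arrays. Of 20 measurable ones, 0 were called in either direction by limma and 1, Socs3, had an unadjusted p below 0.05. Differences were negative for 18, and their median was −0.63, against −0.01 over all genes. Socs3, a feedback inhibitor of cytokine signalling, had −1.06 ± 0.45 (SE, adjusted p = 0.402), and Zc3h12a, an RNase that degrades cytokine transcripts, had −0.99 ± 0.43 (SE, adjusted p = 0.423). Without LETO 1 these values were −0.50 for Socs3 and −0.48 for Zc3h12a. Per array, the median deviation of the 20 genes from their own means was 1.44, 0.02 and −0.32 on LETO arrays 1 to 3 and 0.22, −0.74 and −0.52 on OLETF arrays 1 to 3. The median difference was −0.19 without LETO 1, with 13 of 20 negative, and −0.01 with slide as a block, with 11 of 20 negative.

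Several of these genes ranked the arrays as Il1b did, which was noticed after their values were seen. The order of the 6 arrays was the same as that of Il1b for 7 of the 20, Tnf, Ccl2, Ccl7, Cxcl1, Cxcl2, Icam1 and Sele, and for 51 of the 18815 other genes tested, or 0.271%. These values share arrays and scaling, so they describe the arrays and carry no test. The neutrophil chemokine Cxcl1 read 2.98, 1.81 and 0.24 on LETO arrays 1 to 3 and 2.57, −2.41 and −1.01 on OLETF arrays 1 to 3, 41.8-fold from lowest to highest. Cxcl2, a related chemokine, spanned 36.6-fold, the monocyte chemokine Ccl2 spanned 15.5-fold and the cytokine Tnf spanned 10.6-fold. None of the 4 was called, with adjusted p between 0.667 for Cxcl1 and 0.763 for Tnf. Il6, a cytokine that IL-1 induces, was well above background on 2 arrays and Ptgs2, the inducible cyclooxygenase, on 4.

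**Figure D3:**
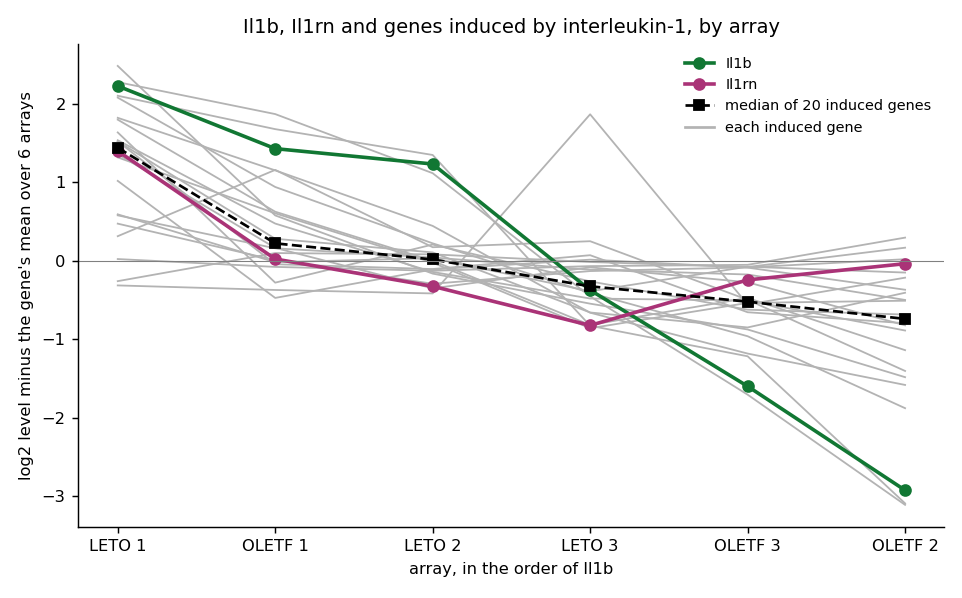
Deviation of each gene from its own mean over the 6 arrays, in log2 units on the vertical axis, with the arrays on the horizontal axis ordered by Il1b. Grey lines join the values of each of 20 genes induced by interleukin-1 and NF-kappaB, black squares are their median, and green and purple mark Il1b and Il1rn. The median falls from 1.44 in LETO 1 to −0.74 in OLETF 2, and Il1rn is high on LETO 1 and lies between −0.82 and 0.02 on the other 5 arrays.

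Il18, the other cytokine that caspase-1 activates, had the smallest SD within the strains among the measurable members, 0.11. Its levels read −2.41, −2.63 and −2.69 on LETO arrays 1 to 3 and −2.60, −2.59 and −2.64 on OLETF arrays 1 to 3, where the SD was 0.03. The difference was −0.03 ± 0.10 (SE, adjusted p = 0.964), with a 95% confidence interval of −0.27 to 0.20, or 0.830-fold to 1.15-fold. Il18r1, which encodes the binding chain of its receptor, had 0.05 ± 0.09 (SE, adjusted p = 0.946), and Il18rap, the accessory chain, was well above background on 0 arrays.

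Il18bp, a secreted protein that binds IL-18 and keeps it from its receptor, was 1.63-fold higher in OLETF. Its levels read −2.03, −2.07 and −2.10 on LETO arrays 1 to 3 and −1.21, −1.44 and −1.43 on OLETF arrays 1 to 3, with every OLETF array above every LETO array. The difference was 0.70 ± 0.10 on the log2 scale (SE, limma adjusted p = 0.0121), and its probe lies at chr1:159472813-159472872 on rn4. With slide as a block it was larger, at 0.85, and did not pass (adjusted p = 0.0651). Leaving out LETO 1 or OLETF 1 kept the call, and leaving out any other array ended it, at adjusted p between 0.0539 and 0.0562. As above, the fit without OLETF 1 cannot tell strain from slide. It also ended without a filter on dim probes (adjusted p = 0.0522). Il18bp was the 1 gene called higher among 6 measurable ligands, receptors and inhibitors of the family, with 0 called lower, 0 lower at an unadjusted p below 0.05 and a median difference of 0.04. The list has 15 genes on the array, so 9 were not measurable.

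Il33, the alarmin of the family, read −0.77, −1.08 and −0.82 on LETO arrays 1 to 3 and −1.18, −1.30 and −1.28 on OLETF arrays 1 to 3. All OLETF arrays lay below all LETO arrays, by 0.10 at the nearest. The difference was −0.36 ± 0.11 on the log2 scale (SE, 95% confidence interval −0.62 to −0.11), or 0.777-fold, with an unadjusted p of 0.0123 from limma and an adjusted p of 0.190. With slide as a block it was −0.29, and without 1 array in turn it lay between −0.46 and −0.30. It passed in 1 of 19 alternative settings, with array quality weights, which give LETO 1 little influence (−0.38, adjusted p = 0.0405).

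Fibroblasts and endothelial cells are known sources of Il33. The summed level of 7 fibroblast markers was 62.9 to 83.1 times the 75th percentile in LETO and 79.3 to 91.6 in OLETF, and that of 7 endothelial markers was 33.4 to 37.8 and 35.8 to 39.9. The strains overlapped in both sums. By limma 3 of 7 fibroblast and 1 of 7 endothelial markers had an unadjusted p below 0.05, and 0 were called. Mast cells and T cells respond to IL-33 through ST2. Of 8 measurable mast cell markers 1 was called higher and 5 had an unadjusted p below 0.05. Their sums were 0.963 to 1.501 in LETO and 1.25 to 1.96 in OLETF, which overlapped. Of 9 measurable T and natural killer cell markers 1 was called higher and 2 lower, and 6 had an unadjusted p below 0.05. Their sums, 3.07 to 3.72 in LETO and 2.15 to 2.38 in OLETF, did not overlap. The share called over all genes was 2.55%. The part of any of these cell types in the Il33 values was not tested.

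Il1rn, which encodes the receptor antagonist, read −2.92, −4.65 and −5.15 on LETO arrays 1 to 3 and −4.30, −4.36 and −4.57 on OLETF arrays 1 to 3. LETO 1 was the highest array and LETO 3 the lowest, 4.67-fold apart, and all OLETF arrays lay between them. The SD was 1.17 in LETO and 0.14 in OLETF. The difference was −0.17 ± 0.52 (SE, adjusted p = 0.964), with a 95% confidence interval of −1.39 to 1.05. Without LETO 1 it was 0.49, of the opposite sign (adjusted p = 0.225). Il1rn has 1 spot per array, and LETO 3 read 29.9 units, where the dimmest probe well above background on that array lay at 19.6. Probes between −7 and −5 had a median SD of 0.329 across repeated spots.

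Il1r1, the signalling receptor for IL-1, read −4.02, −4.37 and −4.56 on LETO arrays 1 to 3 and −4.81, −4.12 and −4.43 on OLETF arrays 1 to 3. The strains overlapped, and OLETF 1 was the lowest array. The difference was −0.14 ± 0.21 (SE, adjusted p = 0.921), with a 95% confidence interval of −0.63 to 0.35, and it was −0.50 with slide as a block. Probes at this level had a median SD of 0.121 across repeated spots, a larger scatter than at the level of Casp1.

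The receptor genes of the family lie side by side on rn4 chromosome 9, within 361 kb from the probe of Il1r2 to that of Il18rap. Il1r1 and Il18r1 were well above background on all 6 arrays, the decoy receptor gene Il1r2 on 3, Il1rl2 on 1, and Il1rl1 and Il18rap on 0. Il1rap, the accessory chain that IL1R1 and ST2 share, lies on another chromosome and had 0.02 ± 0.22 (SE, adjusted p = 0.993).

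The list of signalling from the receptor to NF-kappaB had 22 measurable genes, among them inhibitors such as Nfkbia. By limma 0 were called higher, where 1 had an unadjusted p below 0.05, and 1 was called lower, with a median of −0.09. The called gene was Irak1bp1, which encodes a protein that binds the kinase IRAK1. Its levels read −3.14, −2.96 and −3.09 on LETO arrays 1 to 3 and −3.66, −4.10 and −3.94 on OLETF arrays 1 to 3, without overlap. The difference was −0.84 ± 0.13 on the log2 scale (SE, adjusted p = 0.0198). Slide as a block gave −0.60 (adjusted p = 0.257). Leaving out any array other than LETO 1 and OLETF 1 ended the call, at adjusted p between 0.0669 and 0.105. It also ended with normexp background correction, where the difference was −0.48 (adjusted p = 0.0546), and without a filter on dim probes (adjusted p = 0.0779). A replicate block ended it as well (adjusted p = 0.0743). Myd88, the adaptor of the receptor, had −0.14 ± 0.18 (SE, adjusted p = 0.903), and Nfkbia, the inhibitor of NF-kappaB, had 0.13 ± 0.18 (SE, adjusted p = 0.913).

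Txnip read 2.10, 2.59 and 2.39 on LETO arrays 1 to 3 and 2.26, 2.65 and 3.00 on OLETF arrays 1 to 3. OLETF 3 was the highest array and OLETF 1 lay below 2 LETO arrays, so the strains overlapped. The difference was 0.27 ± 0.21 (SE, adjusted p = 0.750), with a 95% confidence interval of −0.22 to 0.76, and it was −0.11 with slide as a block. It was 0.0899 without OLETF 3, 0.14 without LETO 1 and 0.46 without OLETF 1. The fold of 1.21 has an interval of 0.860 to 1.70.

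Around Txnip, 0 of 16 measurable genes of the thioredoxin system, the arrestin-domain family and the response to carbohydrate were called by limma and 0 had an unadjusted p below 0.05, with a median of 0.03. Arrdc2, a relative of Txnip, had 0.17 ± 0.11 (SE, adjusted p = 0.671), and Arrdc4, a relative that glucose also induces, had −0.03 ± 0.16 (SE, adjusted p = 0.979). Ddit4, a stress-induced inhibitor of mTOR known to respond to energy stress, had 0.43 ± 0.33 (adjusted p = 0.763). Txn1, the thioredoxin that TXNIP inhibits, had 0.02 ± 0.10 (SE, adjusted p = 0.974).

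**Figure D4:**
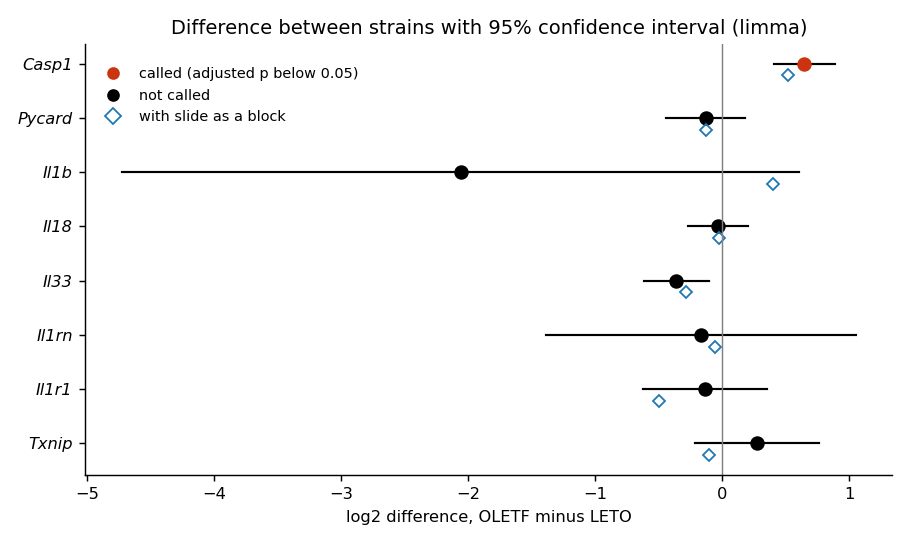
Difference between the strains in log2 units, OLETF minus LETO, for the 8 measurable members, with 95% confidence intervals from limma. Red marks the called member, black the others, and open diamonds the value with slide as a block. The interval excludes 0 for Casp1 and Il33, is widest for Il1b, and the diamonds of Il1b and Txnip lie on the other side of 0.

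Over all 6 lists of pathway genes, 92 of 116 on the array were measurable and 2 were called, Il18bp higher and Irak1bp1 lower, which is 2.17% against 2.55% of all genes.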

How the data were processed

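Per the file headers, Agilent Feature Extraction 10.7.3.1 made the processed signal, a linear intensity already corrected for background and its trend (the submitters' processing notes give version 9.1). The deposited flags for background, outliers and saturation are used as given. The authors' value table matched that intensity after division by 1 number per array (1251 to 1772), so it is linear and uncentred. Its probe medians lay between 0.0832 and 0.0896, and on a log scale it correlated with the scanner signal at 1. On 1-colour arrays no ratio direction arises.

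Signals were log2 transformed and each array's 75th percentile over probes was subtracted. Control spots and 260 to 356 outlier spots per array were left out, and spots of a probe were averaged. A probe was well above background on an array if at least 50% of its spots were, and tested if this held on all 3 arrays of a strain. The brightest tested probe stood for each gene, which gave 18816 genes from 30367 probes. Strains were compared with lmFit and eBayes in limma 3.58.1 (R 4.3.3, the data.table package, version 1.17.8), with Benjamini-Hochberg adjustment over all genes at 0.05. Tables and figures were made with Python 3.11.15, pandas 2.3.3, numpy 2.4.6 and matplotlib 3.10.9. On simulated data for this comparison with 18816 genes, 44% of 50 genes changed 1.5-fold were recovered, 82% of those changed 2-fold and 98% of those changed 4-fold, with 4 unchanged genes called. The simulated noise was independent between genes and held no slide effect and no outlying array, unlike these arrays.

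The members, the 6 pathway lists and the marker lists were chosen with earlier results of these data known. Named are all members and, per list, up to 4 called genes per direction, or the 2 with the smallest adjusted p. Others are named for their role or, where stated, after their values were seen: the neighbours of Casp1 and Il1b, chains of the receptors and the regulators Gsdmd, P2rx7, Nek7, Nlrp6, Nlrp10, Nlrp12, Myd88, Nfkbia, Txn1 and Arrdc4 for their role. All 10 members were found in the RefSeq gene table, and the promoter is from RefSeq (GRCr8). Precision is limited by the number of arrays. The correlations of deviations of arrays with the same replicate number are given with the alternatives.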

Additional observations from a re-analysis of the deposited data

How the results depend on the processing

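Alternatives covered scaling (quantile, median of detected probes, normexp with an offset of 50, the value table), the filter (none, or detection on all 6 arrays), averaged probes, trend and robust, array weights, age as a covariate, slide and replicate blocks, and each array left out. The 75th percentile over spots was added after seeing the data. Every scaling left the median of all genes within 0.01 of 0 and Casp1 called. Calls higher and lower over all genes, 283 and 197, became 149 and 91 without a filter, 875 and 825 with array weights, and 52 and 53 with slide as a block. Called members and called pathway genes, 1 and 2, became 0 and 0 without a filter, 2 and 4 with array weights, and 0 and 0 with slide as a block. With 1 array left out, calls ranged from 110 to 374 higher and from 87 to 241 lower, from 0 to 1 members and from 0 to 3 pathway genes. Arrays with the same replicate number did not deviate together over all genes, with correlations of −0.09, −0.14 and −0.01. This does not settle whether the numbers pair the rats. For Il1b a replicate block lowered the SE from 1.13 to 0.64, and the difference of −2.06 still did not pass (adjusted p = 0.273). With a replicate block 166 genes were higher, 135 lower, 0 members and 2 pathway genes were called, and Casp1 had an adjusted p of 0.0695. These 2 were not the same pair as before. Both were in the list of ligands, receptors and inhibitors, Il18bp (adjusted p = 0.0481) and another gene, and Irak1bp1 lost its call (adjusted p = 0.0743). Of the members' values under alternatives, 133 kept direction and call, 7 lost a call, 1 gained one and 11 changed sign. Il18 turned to 0.0308 with normexp and 0.0436 with array weights, where Il1r1 turned to 0.0264 and Il1rn to 0.45. With 1 array left out, Il18 ranged from −0.0901 to 0.0523, Il1r1 from −0.31 to 0.0426, Il1rn from −0.62 to 0.49 and Pycard from −0.22 to 0.0061, each positive without LETO 1 and Il1r1 also without OLETF 1. With slide as a block Il1b turned to 0.40, Txnip to −0.11 and the pathway gene Ddit4 to −0.17. None of these reversed values was called in either setting. The cause was not tested. Nlrp3 and Il1rl1 were limited by signal over background, and the median SD across repeated spots rose from 0.0438 above a level of 1 to 0.121 between −5 and −3.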
